A study of Homo sapiens with 2 samples.

Results

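The glycolysis genes described here are 10 genes that encode glycolytic enzymes: HK2, ALDOA, TPI1, GAPDH, PGK1, PGAM1, ENO1, PKM, LDHA and LDHB. They were chosen by name, with earlier results of these data known. They were looked up by gene name among the 10145 genes listed in either of 2 tables of PAR-CLIP clusters. Of the 10, 8 were listed in both tables, and TPI1 and PGK1 had no entry in either. The tables hold 1 library of Flag/HA-tagged ZC3H7B and 1 library of Flag/HA-tagged ZC3H7A, both from HEK293, an established line of human embryonic kidney origin. In both, the tagged protein was overexpressed by induction with doxycycline (1 µg/mL, 24 h), RNA was labelled with 4-thiouridine (100 µM, 16 h), and cells were irradiated at 365 nm. The growth protocol names HEK293 and Flp-In T-REx 293 cells, and the labels give HEK293 for both samples. PAR-CLIP reads crosslinks at 4-thiouridine as T-to-C conversions and groups overlapping reads into clusters. There was no control library and no second library of either protein, so no difference between the proteins could be tested, and no value here has a replicate check. RNA levels were not analysed here, so the cell line was not checked against marker genes, and a read number reflects both how much of a messenger RNA was present and how much of it was recovered.

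Glycolysis splits glucose into pyruvate in the cytosol and yields ATP and NADH. Hexokinase (HK2) traps glucose in the cell as its phosphate, aldolase (ALDOA) splits the sugar, and the enzymes from GAPDH to pyruvate kinase (PKM) recover energy. Lactate dehydrogenase, a tetramer of LDHA and LDHB subunits, interconverts pyruvate and lactate. Cultured, dividing cells are known for high expression of these enzymes. ZC3H7A and ZC3H7B are related CCCH zinc finger proteins that bind RNA, and the series title presents them as codon-dependent regulators of messenger RNA translation and stability.

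Clusters on genes numbered 99805 in the ZC3H7B library, with 2409465 reads on 9159 genes, and 51808 in the ZC3H7A library, with 3779662 reads on 8204 genes. Each distinct read was counted 1.99 times on average in the ZC3H7B library and 12.6 times in the ZC3H7A library. Each tagged gene had a larger share of the reads in its own library. ZC3H7B took 0.156% of the reads in the ZC3H7B library and 0.0360% in the ZC3H7A library, and ZC3H7A took 0.00656% and 2.19% in the same order. Intervals below are exact 95% intervals for counting error only, and copies made by PCR make those on reads too narrow even for that.

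Of the 8 listed glycolysis genes, 6 took a smaller share of the ZC3H7B library than of the ZC3H7A library, HK2 took a larger one, and PGAM1 had near equal shares. Together the 8 genes held 3561 reads in the ZC3H7B library, 0.148% of its reads, and 20093 reads in the ZC3H7A library, 0.532%. In distinct reads these shares were 0.132% and 0.424%. Log2 ratios divide a gene's ZC3H7B reads by its ZC3H7A reads, after scaling that puts the median gene at 0 among the 7168 genes whose summed reads reach 20. A gene was called where its whole interval lay beyond 2-fold. Of the 8 genes, 5 were called lower in the ZC3H7B library (ALDOA, GAPDH, ENO1, PKM and LDHB), against 18.0% of all genes compared. HK2 alone was called higher there, against 18.2% of all genes, and PGAM1 and LDHA were called in neither direction. Because the genes were chosen with earlier results of these data known, their counts beside these shares are description only. The median log2 ratio of the 8 genes was -1.65, where that of all genes is 0 by construction, and it was -1.83 without HK2.

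**Figure D1:**
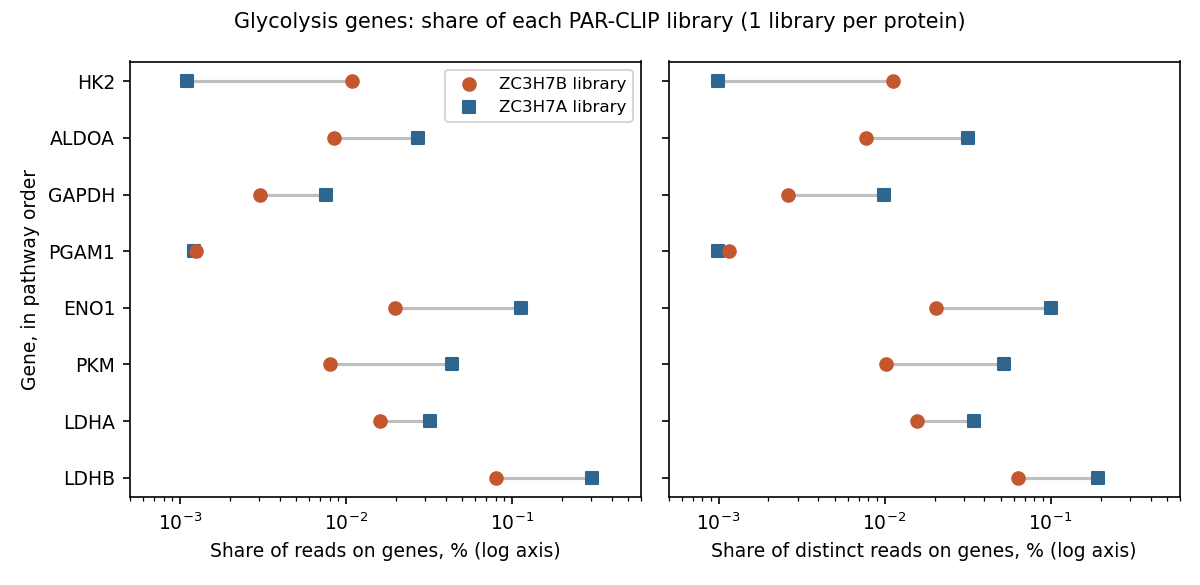
Share of each library taken by the 8 listed glycolysis genes, as percent of reads (left) and percent of distinct reads (right), on log axes. Circles are the ZC3H7B library and squares the ZC3H7A library. HK2 lies higher in the ZC3H7B library, PGAM1 is near equal, and the other 6 genes lie lower in the ZC3H7B library in both panels.

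HK2, a hexokinase often raised in tumours, had 263 reads in 17 clusters in the ZC3H7B library and 42 reads in 1 cluster in the ZC3H7A library. These were made of 136 and 3 distinct reads. Its log2 ratio was 3.14 (2.67 to 3.65), an 8.81-fold higher level in the ZC3H7B library, and 97.3% of all genes compared had a lower ratio. The clusters of HK2 lay mostly in the 3' UTR, with 12 of 17 there and 5 in coding sequence in the ZC3H7B library. The single cluster in the ZC3H7A library lay in the 3' UTR as well. With distinct reads the log2 ratio was 3.45 (1.87 to 5.74). Mean reads per cluster stood at 15.5 in the ZC3H7B library and 42.0 in the ZC3H7A library, which is a log2 ratio of 0.03 (-0.45 to 0.53) against the median gene. Counted per cluster, HK2 thus lay at the level of the median gene. HK1, the hexokinase of most tissues, did not stand apart in this way, with 109 reads in 11 clusters and 165 reads in 6 clusters, and a log2 ratio of -0.11 (-0.47 to 0.25).

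ALDOA, which encodes aldolase A, had 206 reads in 8 clusters in the ZC3H7B library and 1031 reads in 13 clusters in the ZC3H7A library. Its log2 ratio was -1.83 (-2.05 to -1.61), 3.56-fold lower in the ZC3H7B library. Aldolase makes glyceraldehyde phosphate, and triosephosphate isomerase (TPI1) interconverts its products. TPI1 itself had no entry, although its pseudogene TPI1P1 was listed in both tables. TPI1P1 held 32 reads in the ZC3H7B library and 135 in the ZC3H7A library, in 2 clusters each, with a log2 ratio of -1.58 (-2.19 to -1.02). Reads of a processed pseudogene cannot be told apart from those of its parent gene where the sequences match, so the assignment of these reads is uncertain.

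GAPDH, the dehydrogenase that makes the NADH of glycolysis, had 73 reads in 4 clusters in the ZC3H7B library and 286 reads in 5 clusters in the ZC3H7A library. Its log2 ratio of -1.48 (-1.87 to -1.10) is a 2.78-fold lower level in the ZC3H7B library. Scaled to library totals it was -1.32 (-1.71 to -0.95), no longer called. GAPDH ranked 4792 of 9159 genes by reads in the ZC3H7B library, near the middle. In the ZC3H7A library it ranked 2676 of 8204, within the upper 32.6%. Its transcript is known as one of the most abundant in cultured cells, but its RNA level was not analysed here. The entry GAPDHP65, a GAPDH pseudogene, was listed for the ZC3H7A library only, with 134 reads. PGK1, the kinase that follows GAPDH and makes the first ATP, had no entry. Genes enter the tables only through called clusters, so a missing entry does not mean that reads were absent. The lowest read sum of any listed gene was 4 in the ZC3H7B library and 5 in the ZC3H7A library. Of 20052 annotated protein-coding genes, 34.2% were listed in both tables.

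PGAM1, phosphoglycerate mutase, had 30 reads in 1 cluster in the ZC3H7B library and 46 reads in 1 cluster in the ZC3H7A library, in the 3' UTR in both. They were made of 14 and 3 distinct reads. The log2 ratio was -0.12 (-0.84 to 0.57), and its sign turned when distinct reads (0.17), reads per cluster (0.85) or library totals (0.033) were used. No direction can be given for PGAM1.

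ENO1 and PKM, at the end of the pathway, had the lowest ratios of the 8 genes. ENO1, which encodes enolase 1, had 477 reads in 14 clusters in the ZC3H7B library and 4316 reads in 20 clusters in the ZC3H7A library. Its log2 ratio was -2.68 (-2.82 to -2.55), 6.43-fold lower in the ZC3H7B library, and 5.55% of all genes compared had a lower one. PKM, pyruvate kinase, had 194 reads in 15 clusters in the ZC3H7B library and 1654 reads in 17 clusters in the ZC3H7A library. Its log2 ratio was -2.60 (-2.82 to -2.38), 6.06-fold lower. The 2 intervals overlap, so the order of ENO1 and PKM is not resolved even by counting error. Both genes stayed called by mean reads per cluster, at -1.20 (-1.34 to -1.06) for ENO1 and -1.44 (-1.67 to -1.23) for PKM. That count includes copies made by PCR, and its intervals take cluster numbers as fixed. Before any scaling, ENO1 had 17.6 distinct reads per cluster in the ZC3H7B library and 15.2 in the ZC3H7A library. PKM had 8.2 and 9.24 in the same order. Whether the calls hold in distinct reads per cluster was not tested.

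The lactate dehydrogenase genes lay on the same side, LDHB farther out than LDHA. LDHB, the heart-type subunit, had 1930 reads in 12 clusters in the ZC3H7B library and 11510 reads in 15 clusters in the ZC3H7A library. It ranked 163 of 9159 genes by reads in the ZC3H7B library and 16 of 8204 in the ZC3H7A library. LDHB alone supplied 54.2% of the reads of the 8 genes in the ZC3H7B library and 57.3% in the ZC3H7A library. Its log2 ratio was -2.08 (-2.15 to -2.01), 4.24-fold lower in the ZC3H7B library. LDHA, the muscle-type subunit, had 388 reads in 10 clusters in the ZC3H7B library and 1208 reads in 8 clusters in the ZC3H7A library. Its log2 ratio was -1.15 (-1.31 to -0.98), which just missed the call. With TMM scaling it was -1.18 (-1.35 to -1.02) and with a minimum of 100 reads summed -1.17, and both intervals lay past it. The LDHA and LDHB intervals do not overlap in reads, but they do in distinct reads, at -1.19 (-1.54 to -0.83) for LDHA and -1.64 (-1.79 to -1.48) for LDHB. Transcript lengths were not used here, so ranks and shares order read sums and not recovery per length. LDHA pseudogenes were listed for the ZC3H7B library only, led by LDHAP7 with 16 reads and LDHAP4 with 15. Entries for pseudogenes of the 10 genes held 82 reads in all in the ZC3H7B library, 2.30% of the reads of the 8 genes, and 269 reads in the ZC3H7A library, 1.34%.

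**Figure D2:**
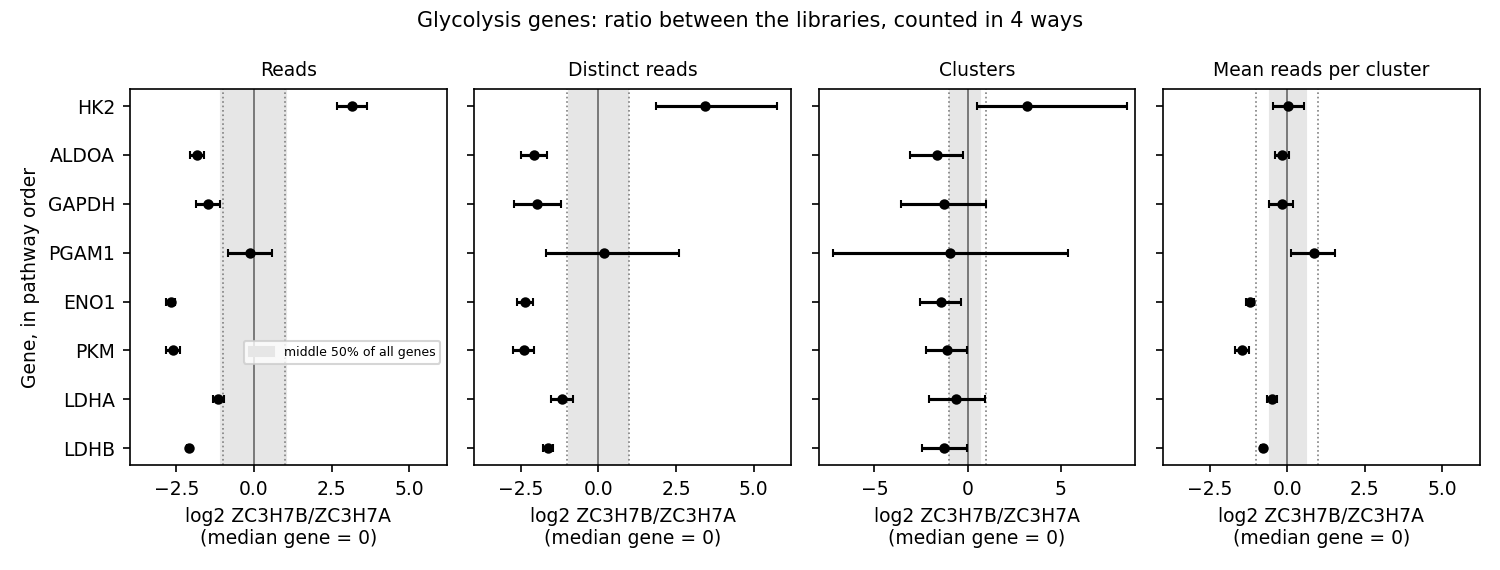
The log2 ratio of ZC3H7B over ZC3H7A for each listed glycolysis gene, counted in reads, distinct reads, clusters and mean reads per cluster, with exact 95% counting intervals. Grey bands span the middle 50% of all genes compared, the solid line is the median gene and dotted lines mark 2-fold; the cluster panel has a wider axis. HK2 stands at 3.14 in reads and 0.03 in mean reads per cluster, while ENO1 and PKM lie beyond 2-fold in both.

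How a gene was counted mattered for the size of the difference. With distinct reads the same calls were made as with reads, 5 genes lower in the ZC3H7B library (10.1% of all genes in that count) and HK2 higher (7.28%). Most genes had more clusters in the ZC3H7B library, 74.2% of those compared, whereas 14.7% had more in the ZC3H7A library. Of the glycolysis genes, 2 (HK2 and LDHA) had more clusters in the ZC3H7B library, 5 had more in the ZC3H7A library, and PGAM1 had 1 in each. By mean reads per cluster ENO1 and PKM remained called, against 4.65% of all genes in that direction and 6.18% in the other, and ALDOA (-0.16), GAPDH (-0.18) and LDHB (-0.79) were not. In numbers of clusters no gene of the 8 was called in either direction, where 0.321% of all genes were called higher and 0.223% lower. In the other settings the background was 21.2% of all genes called higher in the ZC3H7B library and 15.5% lower for library totals, 17.3% and 18.5% for TMM, 18.1% and 18.0% for no minimum, and 18.8% and 19.7% for a minimum of 100 reads. The 8 genes carried 1 to 17 clusters in the ZC3H7B library and 1 to 20 in the ZC3H7A library, and intervals on such numbers are wide.

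Clusters on the glycolysis genes lay mainly in coding sequence in both libraries. Coding sequence held 47 of 81 clusters in the ZC3H7B library, or 58.0% (46.5 to 68.9%), and 50 of 80 in the ZC3H7A library, or 62.5% (51.0 to 73.1%). Intervals on summed clusters treat clusters as independent, although they are grouped within genes. Coding shares of single genes ran from 0% (PGAM1) to 100% (GAPDH) in the ZC3H7B library. The intervals are thus too narrow to serve as a test against all genes, and the comparison is description only. Over all genes the coding share was 29.6% in the ZC3H7B library and 42.7% in the ZC3H7A library, below both intervals. Some lists described below lay above all genes too. The other glycolytic enzymes had 54.1% in the ZC3H7B library and 62.9% in the ZC3H7A library. The citrate cycle had 45.2% and 64.6%, the pentose phosphate pathway 35.3% and 63.3%, and the pyruvate dehydrogenase list 35.1% and 58.9%. Both lists of regulators lay below all genes, the regulators and transporters at 19.8% and 37.3%. In the ZC3H7A library a high coding share was thus not particular to the glycolysis genes. The 3' UTR held 22 of 81 clusters of the glycolysis genes in the ZC3H7B library, or 27.2% (17.9 to 38.2%), and 13 of 80 in the ZC3H7A library, or 16.2% (8.95 to 26.2%), where all genes had 55.8% and 39.8%. Of the 22 clusters in 3' UTRs in the ZC3H7B library, 12 were on HK2. Without HK2 the coding share was 65.6% (52.7 to 77.1%) in the ZC3H7B library and 63.3% (51.7 to 73.9%) in the ZC3H7A library, and the 3' UTR share was 15.6% and 15.2%. The other 7 genes thus had shares in the 2 libraries that differed by less than their intervals.

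Gene by gene, coding clusters of ENO1 numbered 11 of 14 in the ZC3H7B library and 17 of 20 in the ZC3H7A library. PKM had 12 of 15 coding clusters in the ZC3H7B library and 9 of 17 in the ZC3H7A library. GAPDH had 4 of 4 and 4 of 5 in the same order, and no cluster in its 3' UTR in either. ALDOA had 5 of 8 and 8 of 13. LDHB had 6 of 12 and 8 of 15, and LDHA 4 of 10 and 4 of 8. Both LDH genes had 1 cluster at the start codon in each library, and LDHA had 2 at the stop codon and LDHB 1 in each library. ENO1 had 1 cluster in the 5' UTR in each library. Introns held no cluster of these genes in the ZC3H7B library, which allows a share of up to 3.70% of its 81 clusters as a limit of 3 counts and up to 4.45% by the exact interval, and 2 in the ZC3H7A library, 1 on PKM and 1 on LDHB.

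The lower coding share that most genes had in the ZC3H7B library was not shared by all glycolysis genes. Of the 6 with at least 3 clusters in both libraries, 3 had a higher coding share in the ZC3H7B library (ALDOA, GAPDH and PKM) and 3 a lower one (ENO1, LDHA and LDHB). Of all 4517 such genes 22.8% had a higher and 67.8% a lower coding share in the ZC3H7B library. Subtracting ZC3H7A from ZC3H7B shares, the median was -1.19 percentage points over the 6 genes and -10.0 points over all. LDHA alone had a larger 3' UTR share in the ZC3H7B library, and over all genes the median difference was 11.1 points. PKM had the largest coding difference of the 6, 27.1 points. Yet its intervals overlap, 51.9 to 95.7% in the ZC3H7B library and 27.8 to 77.0% in the ZC3H7A library. Intervals of the other genes overlap too. ALDOA differed by 0.96 points only. The lower GAPDH share in the ZC3H7A library came from 1 cluster in no named region. The split of 3 genes against 3 is thus description only.

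**Figure D3:**
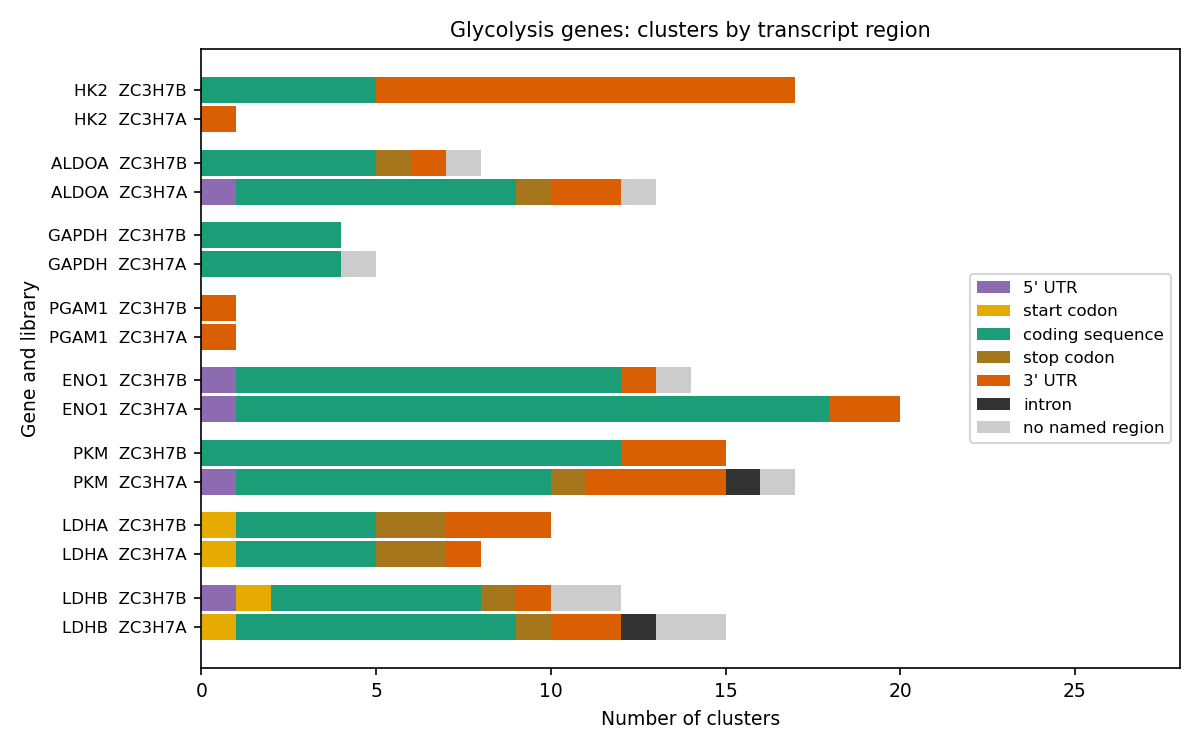
Number of clusters on each listed glycolysis gene by transcript region, with the ZC3H7B library above the ZC3H7A library for each gene. HK2 has 12 of 17 clusters in the 3' UTR in the ZC3H7B library and 1 cluster in the ZC3H7A library, while ENO1 and PKM are mostly coding in both.

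T-to-C conversion was high on every listed gene, as it was on the median gene of each library. Only reads in called clusters enter, so these shares are description and no test of crosslinking. The converted share of reads, averaged over the clusters of a gene, ran from 86.6% (GAPDH) to 97.1% (ALDOA) in the ZC3H7B library and from 84.6% (ALDOA) to 100% (HK2 and PGAM1) in the ZC3H7A library. The median gene of the whole tables stood at 91.1% and 97.4%, and 3 of the 8 glycolysis genes lay above it in the ZC3H7B library and 2 in the ZC3H7A library. HK2 and PGAM1 had 3 distinct reads each in the ZC3H7A library, where a full share is easily reached. By the deposited median over clusters in place of the mean, the fraction of ALDOA was 1 in both libraries. The lowest fraction was then 0.89, for GAPDH in the ZC3H7B library and for ENO1 and PKM in the ZC3H7A library. Which gene stood highest or lowest thus depended on the measure. Duplication differed between the libraries for every gene. Reads per distinct read ran from 1.58 (PKM) to 2.5 (LDHB) in the ZC3H7B library and from 9.53 (GAPDH) to 19.9 (LDHB) in the ZC3H7A library. Its part in the read ratios was not tested beyond the count of distinct reads, in which ENO1 stood at -2.36 (-2.61 to -2.11).

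**Figure D4:**
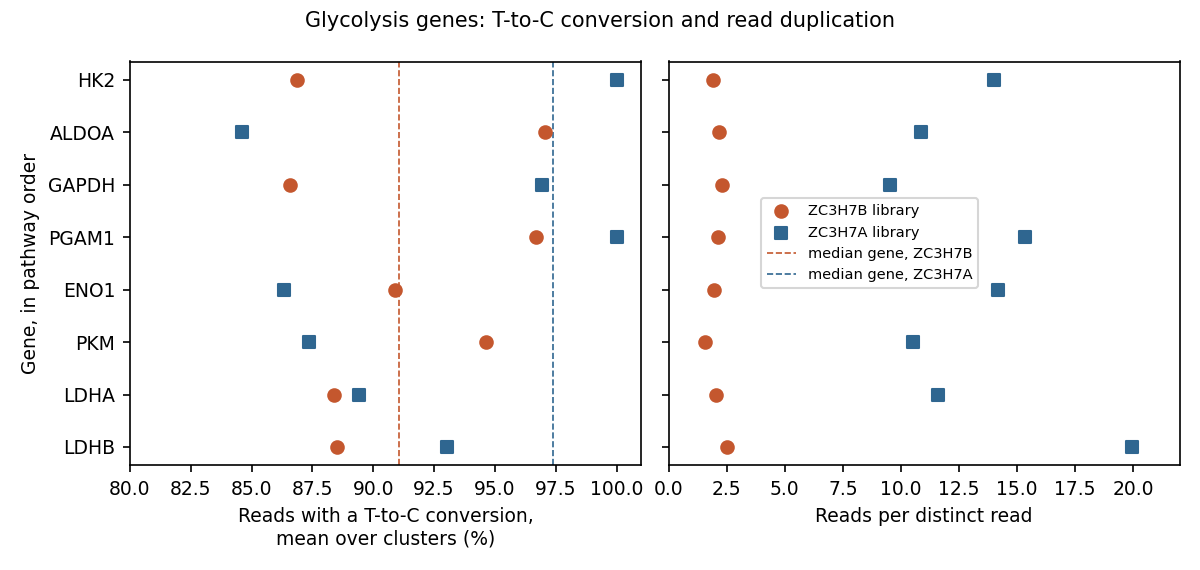
Percent of reads that carry a T-to-C conversion, as the mean over clusters (left, axis from 80%), and reads per distinct read (right) for the listed glycolysis genes, circles for ZC3H7B and squares for ZC3H7A. Dashed lines are the median gene of each library, 91.1% and 97.4%. Reads per distinct read stay at or below 2.5 in the ZC3H7B library and at or above 9.53 in the ZC3H7A library.

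Reads were also spread unevenly over the clusters of a gene. LDHB had a mean of 160.8 and a median of 99 reads per cluster in the ZC3H7B library, and a mean of 767 and a median of 271 in the ZC3H7A library. ENO1 had a mean of 34.1 and a median of 18 in the ZC3H7B library, and a mean of 216 and a median of 102 in the ZC3H7A library. For both genes the mean exceeded the median in both libraries.

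The other glycolytic enzymes were listed less fully. Of 21 further genes, mostly tissue-specific isoenzymes, 6 were listed in either table and 4 could be compared, with a median log2 ratio of -0.96. GPI, glucose phosphate isomerase, had 105 reads in the ZC3H7B library and 522 in the ZC3H7A library, at -1.82 (-2.14 to -1.52). PFKP, the platelet-type phosphofructokinase, had 25 and 176 reads, at -2.32 (-2.99 to -1.71). Both were called lower in the ZC3H7B library, 2 of the 4 genes compared, against 18.0% of all genes. None was called higher, against 18.2% of all genes, and 4 genes are too few for a result about the list. BPGM, which makes 2,3-bisphosphoglycerate, had 564 and 400 reads, at 0.99 (0.80 to 1.18), and was not called, like HK1. Among 13 regulators and transporters, 6 were compared, with 1 called higher and 1 lower in the ZC3H7B library, near the 18.2% and 18.0% of all genes. PFKFB3, whose product activates phosphofructokinase through fructose 2,6-bisphosphate, had 338 reads in the ZC3H7B library and 154 in the ZC3H7A library, at 1.63 (1.35 to 1.91), and 15 of its 17 clusters in the ZC3H7B library lay in the 3' UTR. C12orf5, which encodes the fructose bisphosphatase TIGAR, stood at -2.42 (-2.67 to -2.18) with 158 and 1192 reads, but at -0.87 (-1.45 to -0.26) with distinct reads, no longer called. SLC16A1, the lactate transporter MCT1, had 4778 and 6189 reads and stood at 0.12 (0.06 to 0.17), and SLC2A1, the glucose transporter GLUT1, stood at -0.56 (-0.82 to -0.31) with 194 and 403 reads.

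The pathways that branch from glycolysis or follow it are given beside the same background, 18.2% of all genes called higher in the ZC3H7B library and 18.0% lower, and counts near these shares are no result about a list. For the pyruvate dehydrogenase complex with its regulators, 1 of 11 genes compared was called higher in the ZC3H7B library (PDP1) and 1 lower (PDK3), and the median was -0.46. DLD, the shared dehydrogenase subunit, stood at -0.46 (-0.59 to -0.33), PDHB at -0.86 (-1.05 to -0.67), PDHA1 at -0.41 (-0.68 to -0.14) and PDP2, a phosphatase of the complex, at 0.93 (0.68 to 1.18). In the pentose phosphate pathway 1 of 6 was higher (RPIA) and 2 lower (TKT and H6PD), with a median of -1.19. TKT, transketolase, stood at -2.76 (-3.34 to -2.24) and RPIA, ribose phosphate isomerase, at 2.22 (1.64 to 2.82), while PGD (-0.93) and RPE (0.22) were not called. In the citrate cycle 2 of 15 were higher (CS and IDH3A) and 5 lower (MDH1, IDH1, SDHB, SUCLG1 and SDHA), with a median of -0.95. MDH1, the cytosolic malate dehydrogenase, stood at -2.78 (-3.13 to -2.45), IDH1 at -1.76 (-2.11 to -1.42), SDHB at -2.31 (-2.76 to -1.88), and CS, citrate synthase, at 1.90 (1.62 to 2.19). No gene of the gluconeogenesis list was listed in either table. PDP1, PDK3, H6PD, IDH3A, SUCLG1 and SDHA, and HNRNPA1 and ARNT below, are named because they were called, after their values were seen. With distinct reads PDP1, PDK3, RPIA, H6PD, IDH3A, SUCLG1, SDHA and ARNT were no longer called. All 8 kept their direction, with wider intervals and log2 ratios of 2.13 for PDP1, -1.54 for PDK3, 1.61 for RPIA, -1.47 for H6PD, 2.23 for IDH3A, -1.25 for SUCLG1, -1.32 for SDHA and 1.65 for ARNT.

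The splicing factors that choose between the PKM isoforms differed among themselves. HNRNPA2B1 had 3127 reads in the ZC3H7B library and 25355 in the ZC3H7A library, at -2.53 (-2.58 to -2.47), whereas HNRNPA1 had 375 and 99 reads, at 2.41 (2.09 to 2.75). PTBP1 stood at 0.15 (0.03 to 0.28) and SRSF3 at 0.23 (0.03 to 0.43). Of the transcription factors, HIF1A, the subunit induced by low oxygen, stood at -1.06 (-1.29 to -0.83) and was not called, and its partner ARNT stood at 1.61 (1.31 to 1.92). The deposited counts do not separate PKM isoforms.

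**Figure D5:**
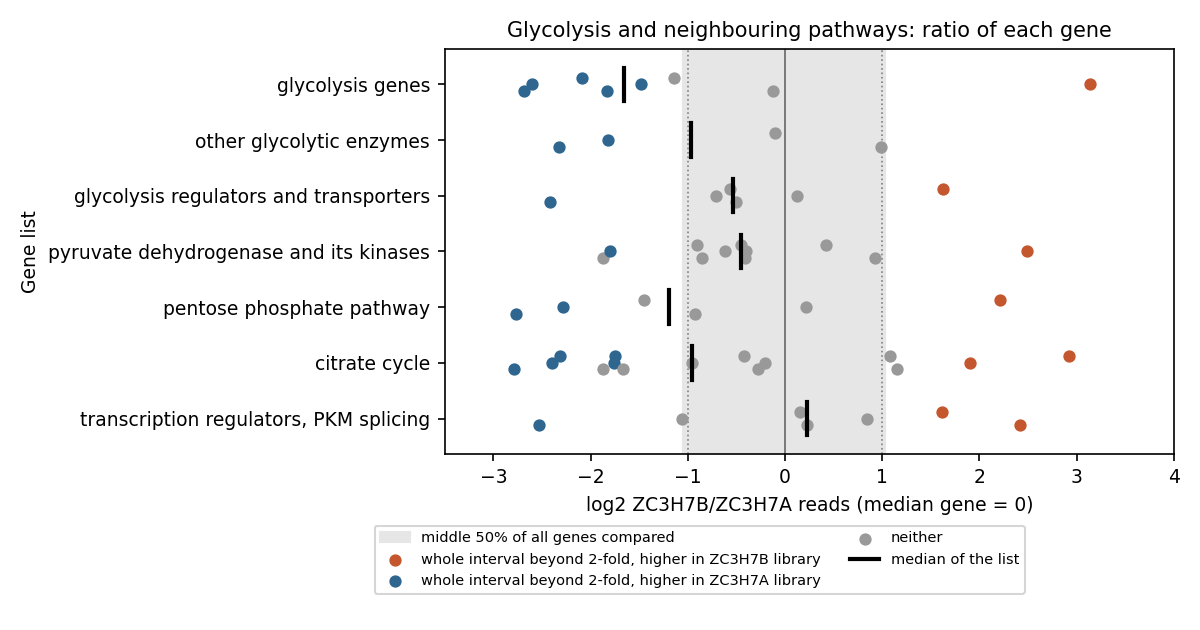
The log2 ratio of ZC3H7B over ZC3H7A reads for each compared gene of the glycolysis genes and 6 neighbouring lists, with the list median as a black bar. Red points were called higher and blue points called lower in the ZC3H7B library, the grey band is the middle 50% of all genes and dotted lines mark 2-fold. The glycolysis genes have the lowest median in reads, -1.65, and HK2 is the point at 3.14. By other counts the order changed. The citrate cycle was lower by mean reads per cluster (-0.895 against -0.337). The pentose phosphate pathway was lower by clusters (-1.38 against -1.18).

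Over these lists, genes called in opposite directions differed in where their clusters lay. The 12 neighbouring genes called lower in the ZC3H7B library had 21 of 79 clusters there in 3' UTRs, 26.6%, and the 7 called higher had 72 of 96, 75%. The 30 called in neither direction had 151 of 288, 52.4%, and all genes had 55.8%. The glycolysis genes were arranged likewise, with 6 of 53 clusters in 3' UTRs, 11.3%, for the 5 called lower and 12 of 17, 70.6%, for HK2. This is a description of these 2 libraries, and the region shares and the ratios come from the same clusters.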

How the data were processed

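Each library has 1 table of genes. Build hg19 and the tools STAR 2.5.2a, Bowtie and cutadapt are named, per the submitters' processing notes, but their settings and the cluster caller were not given in the sources used here. Counts deposited by the authors are clusters, reads and distinct reads summed over clusters, and clusters by region; the exon column was read as coding sequence. The authors deposited medians over clusters, whole in every row for reads but not for distinct reads, which were treated as estimated counts. The deposited fraction is the T-to-C share of reads, and a deposited score of conversion specificity was not used. Reads outside clusters do not enter, and no molecular identifiers are described.

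Rows for repeats, tRNAs and generic small RNAs were left out (407 rows with 1.51% of reads for ZC3H7B, 282 rows with 1.57% for ZC3H7A). Members were matched by gene name, and no RefSeq synonym of TPI1 or PGK1 was listed. RefSeq (GRCh38.p14) served for names only, and no coordinates were used. Ratios and exact Clopper-Pearson intervals were computed as stated with each result and checked on simulated counts. TMM factors from edgeR 4.0.16 in R 4.3.3 served for scaling only. Other tools were scipy 1.17.1, numpy 2.4.6, pandas 2.3.3 and matplotlib 3.10.9 in Python 3.11.15. Named genes are the members, the tagged genes, the 4 genes with the most reads of each neighbouring list and the 4 pseudogene entries with the most reads. The members and lists were chosen with earlier results of these data known.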

Additional observations from a re-analysis of the deposited data

How the results depend on the processing

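No paired analysis was possible because each protein has 1 library, and no library could be left out for the same reason. The count of glycolysis genes called lower in the ZC3H7B library was 5 with reads, distinct reads and no minimum, 4 with library totals, 6 with TMM or a minimum of 100 reads, 2 for reads per cluster and 0 for clusters. HK2 was the 1 gene called higher in all of these but the last pair, where the count was 0. The median log2 ratio lay between -1.86 and -1.18 in these settings except reads per cluster, where it was -0.34; without LDHB it was -1.48. Only PGAM1 changed sign, to 0.17 (distinct reads), 0.85 (reads per cluster) and 0.033 (library totals). Library totals in place of the median gene put the median of all genes at 0.16. The 3' UTR share in the ZC3H7B library was 12.5% as the median of the genes' own shares and 15.6% without HK2, both outside the interval of the summed share; leaving out HK2 or LDHB was chosen after the data were seen. Cluster numbers of at most 20 per gene limit what region shares and cluster ratios can resolve; beyond these constructions the cause was not tested.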
